A study of Mus musculus with 36 samples.

Results

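The regions described here are CpG-dense stretches of DNA that were methylated in the wild-type (WT) brain of mouse embryos at E11.5. A region is an autosomal window of 1 kb. It was selected if at least 30 of its CpGs were covered at least 5 times in all 4 WT embryos of the control diet and if the reads pooled over these CpGs were at least 70% methylated. Of 232592 regions with any such CpG, 9446 held at least 30 of them, and 81 of these (0.858%) were methylated at 70% or more. Since the WT embryos of the 3 ppm diet chose the regions, their level was fixed by that choice, and no test was made against these embryos.

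CpG dinucleotides are rare in mammalian genomes because methylated cytosine mutates readily to thymine. They stay frequent in CpG islands, most of which lie at promoters and are free of methylation in somatic cells and in the germ line. CpG-dense DNA that does carry 5-methylcytosine (5mC) includes promoters of germline genes, inactive or imprinted alleles, young repeats and coding exons within gene bodies. DNA methyltransferases copy 5mC at cell division, and the TET enzymes, of which TET1 is one, oxidise it as a first step of its removal. Folate supplies one-carbon units for the methyl donor that the DNA methyltransferases use.

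The study profiled single brains of 36 embryos of the 129S6.Cg Tet1 tm1Koh line by oxidative bisulfite reduced representation bisulfite sequencing (RRBS), which reads 5mC and not its oxidised forms. Heterozygous (HET) dams were kept for at least 4 weeks on diets of 30, 3 or 0.1 ppm folic acid (FA), all with 1% succinylsulfathiazole, an antibiotic that limits folate made by gut bacteria. Embryos were WT, HET or homozygous knockout (KO) for Tet1, in which a cassette is inserted at the first coding ATG. By the labels, brains came from 3 WT, 5 HET and 6 KO embryos at 30 ppm (excess). At 3 ppm (control) there were 4 WT, 3 HET and 5 KO embryos. At 0.1 ppm (depleted) there were 2 WT, 3 HET and 5 KO embryos, and each diet had 4 litters. HET replicate 2 of 0.1 ppm, which the study left out, was not used, so that 35 embryos were described. The tissue was whole brain from forebrain to hindbrain, so a change in the mix of cells and a change within cells cannot be told apart. Of the 35 embryos, 5 KO embryos were labelled with a neural tube defect (NTD), and 4 KO, 2 HET and 1 WT embryo with the label inHB.

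Libraries held 23.2 to 197 M CpG calls, with a median of 34 M. The Tet1 locus was examined as a check of the genotype labels, at a CpG in the gene that differs between KO and WT libraries (mm10, chromosome 10, position 62884019). Its level was 0.0 to 7.32% in 7 WT libraries, 8.33 to 69.2% in the 10 HET libraries used and 69.6 to 100.0% in 15 KO libraries. Of the other 3 libraries, the one labelled KO replicate 1 of 30 ppm read 45% on 20 reads, with a 95% Wilson interval of 25.8 to 65.8% that covers counting error only. The libraries labelled WT replicate 2 of 30 ppm and WT replicate 2 of 0.1 ppm read 36.36% on 33 reads (22.2 to 53.4%) and 40% on 15 reads (19.8 to 64.3%). All 3 thus lay in the range of the HET libraries. In the study's own list of samples the embryos labelled WT replicate 2 of 30 ppm and of 0.1 ppm are WT, as in their labels. The doubt about them therefore rests on this CpG, on 33 and 15 reads. The HET range ended close to the WT range and to the KO range. The embryo labelled KO replicate 1 of 30 ppm is listed there as HET, against its label. All KO values below that are not given without this library therefore include an embryo whose genotype is in doubt. Likewise, WT values of the 30 and 0.1 ppm diets (n = 5) include the libraries labelled WT replicate 2. This holds also where regions are counted, ordered or grouped by their WT level. The 3 libraries were kept under their labels, and the main counts are given with and without them.

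The DNA of 7 of the regions is printed to show the sequences behind the levels below. Each is a stretch of 200 bases of the GRCm38 (mm10) plus strand, 5′ to 3′, with every CpG in capitals. The first 5 are from regions that were higher in KO than in HET brains, Zfp865 holds the highest number of covered CpGs, and Gm19430 is a pseudogene that did not pass the test.
Nr1h2, chr7:44551515-44551714: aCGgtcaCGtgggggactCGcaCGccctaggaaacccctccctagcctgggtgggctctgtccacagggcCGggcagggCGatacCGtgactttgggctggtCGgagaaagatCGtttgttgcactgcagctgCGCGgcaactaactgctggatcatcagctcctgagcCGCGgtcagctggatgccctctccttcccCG
Hspg2, chr4:137518391-137518590: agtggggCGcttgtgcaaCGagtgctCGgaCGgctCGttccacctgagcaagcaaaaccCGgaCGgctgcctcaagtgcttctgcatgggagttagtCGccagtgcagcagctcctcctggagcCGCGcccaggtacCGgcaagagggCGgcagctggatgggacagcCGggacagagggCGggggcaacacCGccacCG
Fam222a, chr5:114611032-114611231: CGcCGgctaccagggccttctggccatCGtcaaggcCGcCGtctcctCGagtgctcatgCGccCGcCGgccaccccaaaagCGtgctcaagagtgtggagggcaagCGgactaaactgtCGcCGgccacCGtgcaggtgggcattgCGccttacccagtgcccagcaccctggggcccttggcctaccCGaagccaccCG
Shroom3, chr5:92942201-92942400: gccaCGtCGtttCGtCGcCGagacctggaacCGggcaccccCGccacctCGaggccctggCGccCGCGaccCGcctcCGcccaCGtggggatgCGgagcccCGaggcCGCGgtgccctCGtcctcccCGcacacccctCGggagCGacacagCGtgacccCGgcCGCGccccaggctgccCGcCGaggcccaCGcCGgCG
Kcng1, chr2:168262753-168262952: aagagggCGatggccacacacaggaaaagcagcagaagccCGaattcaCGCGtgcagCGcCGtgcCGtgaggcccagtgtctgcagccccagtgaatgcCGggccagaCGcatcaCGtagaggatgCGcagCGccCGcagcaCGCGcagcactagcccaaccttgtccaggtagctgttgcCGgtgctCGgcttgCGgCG
Zfp865, chr7:5031627-5031826: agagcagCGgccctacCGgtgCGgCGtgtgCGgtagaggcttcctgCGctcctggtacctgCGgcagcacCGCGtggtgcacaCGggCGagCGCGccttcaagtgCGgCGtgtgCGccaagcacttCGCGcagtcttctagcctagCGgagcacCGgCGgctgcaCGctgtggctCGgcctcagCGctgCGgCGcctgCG
Gm19430, chr1:34930018-34930217: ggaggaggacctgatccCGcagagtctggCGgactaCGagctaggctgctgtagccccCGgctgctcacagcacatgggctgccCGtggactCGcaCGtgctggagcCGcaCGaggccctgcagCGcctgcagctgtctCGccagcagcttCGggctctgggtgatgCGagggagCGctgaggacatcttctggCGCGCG
The stretch in Shroom3 has 31 CpGs, of which 26 were covered in all embryos. Their mean level was 81.3% ± 7.56 (SD, n = 5) in WT embryos of the 30 and 0.1 ppm diets, 84.3% ± 3.49 (n = 10) in HET and 91.8% ± 1.96 (n = 16) in KO embryos. In the Kcng1 stretch all 19 CpGs were measured, at 74.3% ± 3.96, 79.45% ± 2.89 and 86.8% ± 3.84 in the same groups. The Zfp865 stretch, with 27 CpGs of which 17 were measured, read 67.9% ± 4.58 in WT, 76.2% ± 4.13 in HET and 75.5% ± 3.65 in KO embryos. In Gm19430 only 3 of 17 CpGs were measured in every embryo, and the levels were 96.7% ± 2.09, 96.1% ± 2.89 and 95.1% ± 2.76.

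Most of the 81 regions lay in coding exons and not at the start of a gene. By GENCODE annotation 56 regions (69.1%) were exonic and 22 (27.2%) lay within 1 kb of a transcription start site, while 2 were intronic and 1 intergenic. Among 9300 CpG-dense regions under 30% methylation, the usual state of CpG-dense DNA, 93.7% were at promoters and 3.54% exonic. Coding sequence made up at least 50% of 61 regions (75.3%), against 8.73% of the unmethylated CpG-dense regions, and 22 regions were coding throughout. A start site of a coding gene fell inside 11 of them (13.6%), against 74.5%. These shares are descriptions without a test, since neighbouring regions are not independent.

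The exons were long. A region was in 62 cases (76.5%) in a coding gene with an exon of at least 1 kb there, against 18.3% of the unmethylated CpG-dense regions and 7.34% of a sample of 5000 CpG-poor methylated regions, which have 3 to 9 covered CpGs. The median of the longest exon was 2150 bases, against 360 in the unmethylated group. Examples are the long exons of Chst11 and Chst3, which encode chondroitin sulfotransferases, of Zbtb39 and Bend3, which encode nuclear proteins, and of P2ry2 and F2r, which encode receptors for extracellular nucleotides and for thrombin. Base composition was intermediate: the median GC content was 60.6% and the ratio of observed to expected CpGs 0.577, against 62.8% and 0.793 in unmethylated CpG-dense regions and 47.3% and 0.288 in CpG-poor ones. The number of covered CpGs was part of the rule, so that composition is partly fixed by it. A GC content above 50% together with an observed to expected ratio above 0.6, as in a CpG island, was found in 38 regions (46.9%) and in 92.0% of the unmethylated CpG-dense regions.

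**Figure D1:**
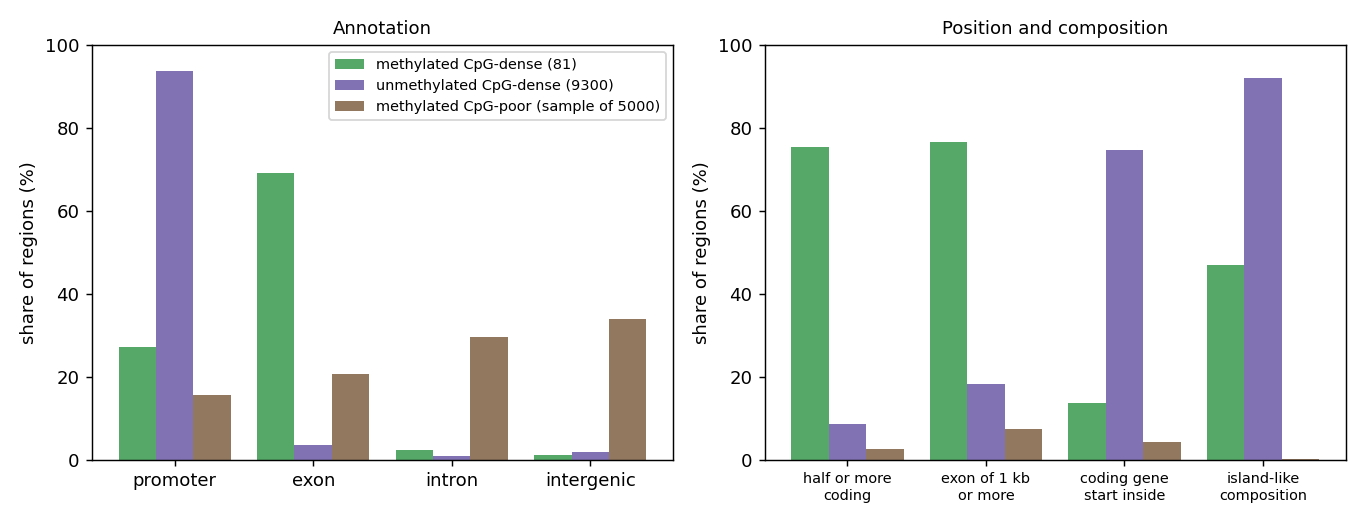
Share of regions (%) by annotation (left) and by position and composition (right) for the 81 methylated CpG-dense regions, 9300 CpG-dense regions under 30% and a sample of 5000 CpG-poor methylated regions. Exons took up 69.1% of the methylated CpG-dense regions and promoters 93.7% of the unmethylated ones.

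The 81 regions fell on 74 genes, 7 of which held 2 regions each, namely Bcl11b, Bsn, Kif26a, Scaf1, Shank2, Tenm2 and Zfp865. Protein-coding genes hosted 76 regions, and 4 were in pseudogenes (Gm19430, Pced1c-ps, Gm49264 and Cfhr3). The remaining one, chr10:29243001-29244000, lay outside genes, and 94.2% of its bases are marked as repeats. It had 176 other stretches of at least 95% identity in the genome and the Cfhr3 region 17, so reads there may come from other copies, while the other regions had none. Chromosome 7 held 16 regions, which were 2.6% of its CpG-dense regions, and chromosome 10, which carries Tet1, held 13 (2.56%), against 0.858% overall. Only 15 of the 81 lay within 10 kb of an unmethylated CpG-dense region, and the median distance to one was 31 kb.

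Among the gene groups examined, germline genes known to be silenced by methylation gave 2 regions, at the promoters of Mael, which acts in transposon silencing in germ cells, and Sycp2, a protein of the synaptonemal complex. None of the 9300 unmethylated regions lay in this group. Zinc finger genes, counted here by the symbols Zfp, Zscan and Zkscan alone, gave 6 regions (7.41%, against 1.67% of unmethylated CpG-dense regions), in Zfp628, Zfp629, Zfp777, Zfp787 and, with 2, Zfp865. Kcng1 was the single cation channel gene (1.23%, against 0.978%), and Fat1, a giant cadherin, and Hspg2, which encodes the basement membrane proteoglycan perlecan, were the 2 members of a list of large adhesion and matrix genes (2.47%, against 0.333%). Imprinted genes, clustered protocadherins, Hox genes, brain patterning factors, collagens, DNA methylation enzymes and genes of one-carbon metabolism gave 0 regions. These lists also held few of the unmethylated CpG-dense regions, 0.043 to 1.11% each. Further promoter regions belonged to genes of germ cells or testis outside the list, which were picked after their names were seen: Sohlh2, Hsf5, Ccin, Ccer1 and 4933416C03Rik.

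Levels in the WT embryos that made the choice ran from 70.5 to 96.6%, with a median of 90.4%. Of the 81 regions 42 were at 90% or more, 29 between 80 and 90% and 10 between 70 and 80%. Just inside the threshold were Zfp865 (70.5%), Nr1h2 (71.3%) and Fam222a (75.2%). Among those just outside were Gsc (69.55%) and Sfi1 (68.5%). In the 5 WT embryos of the other diets, which the rule did not use, 79 of 80 regions were again at 70% or more and Nr1h2 was at 68.65% ± 7.93 (SD, n = 5). These 5 include the libraries labelled WT replicate 2, whose genotype is in doubt. In the other WT embryos of these diets Zfp865 (chr7:5031001-5032000) also read under 70%, at 69.5, 67.2 and 69.9%. The 80 regions are those with at least 3 CpGs covered in all 35 embryos, since one of the Scaf1 regions had none. Reads of a region are summed over its CpGs, so a read that spans several CpGs counts once for each. By this count an embryo had between 60 and 7353 reads per region, with a median of 546.

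Methylation within a region was mostly even. Of 80 regions, 66 had no CpG with a mean level under 50% in the WT embryos of 30 and 0.1 ppm, and of 1856 CpGs 608 were at 95% or more. Single positions that are CpGs in the reference genome read far below their surroundings. In 5 regions a CpG was under 20%: Scaf1 and Pxdn, which encodes a peroxidase of the extracellular matrix, with 2 each, and the kinase gene Lmtk3, the cadherin gene Cdh24 and Zfp865 with 1 each. At position 45007817 in Scaf1 the means were 0.0% in WT, 0.909% in HET and 1.34% in KO embryos, and at position 54632367 in Cdh24 0.0, 0.313 and 0.368%. The CpG in Zfp865, at position 5031699, was intermediate in all genotypes, with 19.7, 23.3 and 21.0%. Whether these positions are also CpGs in the mouse line studied was not tested. Their low values therefore cannot be taken as unmethylated CpGs without that check.

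The mean level over the 80 regions was lowest in WT and highest in KO embryos on each diet. At 30 ppm the pooled reads of an embryo were methylated at 88.4% ± 1.04 (SD, n = 3) in WT, 89.5% ± 0.382 (n = 5) in HET and 91.3% ± 0.772 (n = 6) in KO embryos. At 3 ppm the levels were 88.6% ± 0.48 (n = 4), 90.6% ± 0.279 (n = 3) and 92.1% ± 0.517 (n = 5), and the WT value is one that the rule fixed. At 0.1 ppm they were 88.7% ± 1.81 (n = 2), 90.7% ± 0.234 (n = 2) and 92.3% ± 0.218 (n = 5). KO embryos lay between 91.3 and 92.6% apart from the library labelled KO replicate 1 of 30 ppm, which read 89.8%, and HET embryos between 88.9 and 90.8%. The libraries labelled WT replicate 2 of 30 ppm and of 0.1 ppm read 89.5 and 90%, while the other WT embryos of these diets read 87.45 to 88.1%. Without these 3 libraries the KO and HET ranges did not overlap.

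Within diets, KO exceeded HET embryos by 1.64 percentage points, with a residual SD of 0.482 points over embryos. KO exceeded WT embryos of the 30 and 0.1 ppm diets by 3.17 points (residual SD 0.828) and HET exceeded WT by 1.42 points (0.849). Leaving out the 3 libraries gave 1.76 points (0.361) for KO minus HET, 4.16 (0.345) for KO minus WT and 2.2 (0.515) for HET minus WT. In 34775 CpG-poor methylated regions the same differences were 1.33, 2.24 and 0.901 points, with residual SDs of 0.737, 0.968 and 0.72, and 1.55, 3.06 and 1.41 points without the 3 libraries. The 9268 unmethylated CpG-dense regions with such CpGs stood at 1.13% in WT, 1.11% in HET and 1.62% in KO embryos, so KO exceeded HET there by 0.493 points. No p-value is given for these means because the regions were chosen on some of the embryos.

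**Figure D2:**
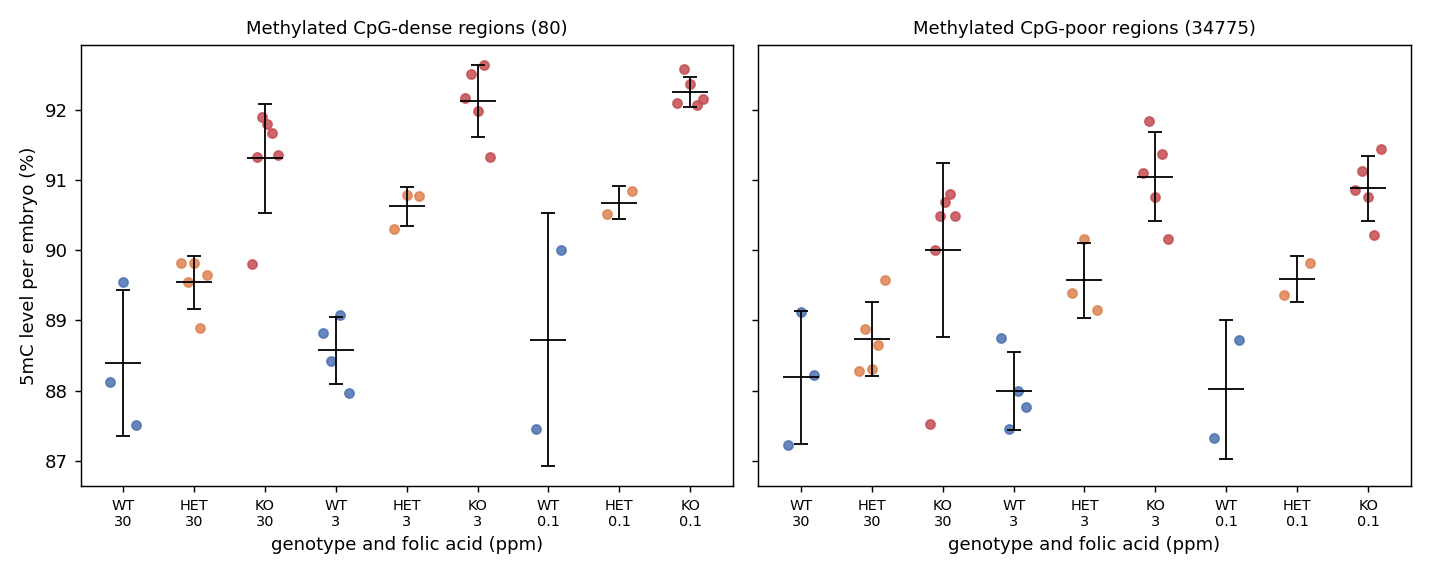
5mC level per embryo (%) pooled over 80 methylated CpG-dense regions (left) and 34775 CpG-poor methylated regions (right), by genotype and folic acid in ppm; points are embryos, bars the mean and SD, and the axis does not start at 0. In the left panel the KO embryos sit between 91.3 and 92.6% with one exception at 89.8%, the HET embryos reach 90.8%, and the WT embryos of 3 ppm are those that chose the regions.

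By region, the mean over KO embryos was above the mean over HET embryos in 66 of 80 regions, and the HET mean was above that of WT embryos of the 30 and 0.1 ppm diets in 61. In 50 regions the 3 genotypes followed the order WT, HET, KO. The median level was 91.3% in WT, 91.7% in HET and 93.3% in KO embryos, and 46, 49 and 59 regions had a mean of 90% or more. Every embryo was at 70% or more in 75 regions. Among embryos of a genotype the median SD per region was 1.53 points in WT, 1.72 in HET and 1.78 in KO embryos. The median of KO minus HET over the 80 regions was 0.9 points, which is less than these SDs. On the control diet, where the WT embryos chose the regions, KO was above WT in 70 of 80 regions, by a median of 1.54 points and a range from -12.5 points in Sycp2 to 14.2 points in Nr1h2.

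**Figure D3:**
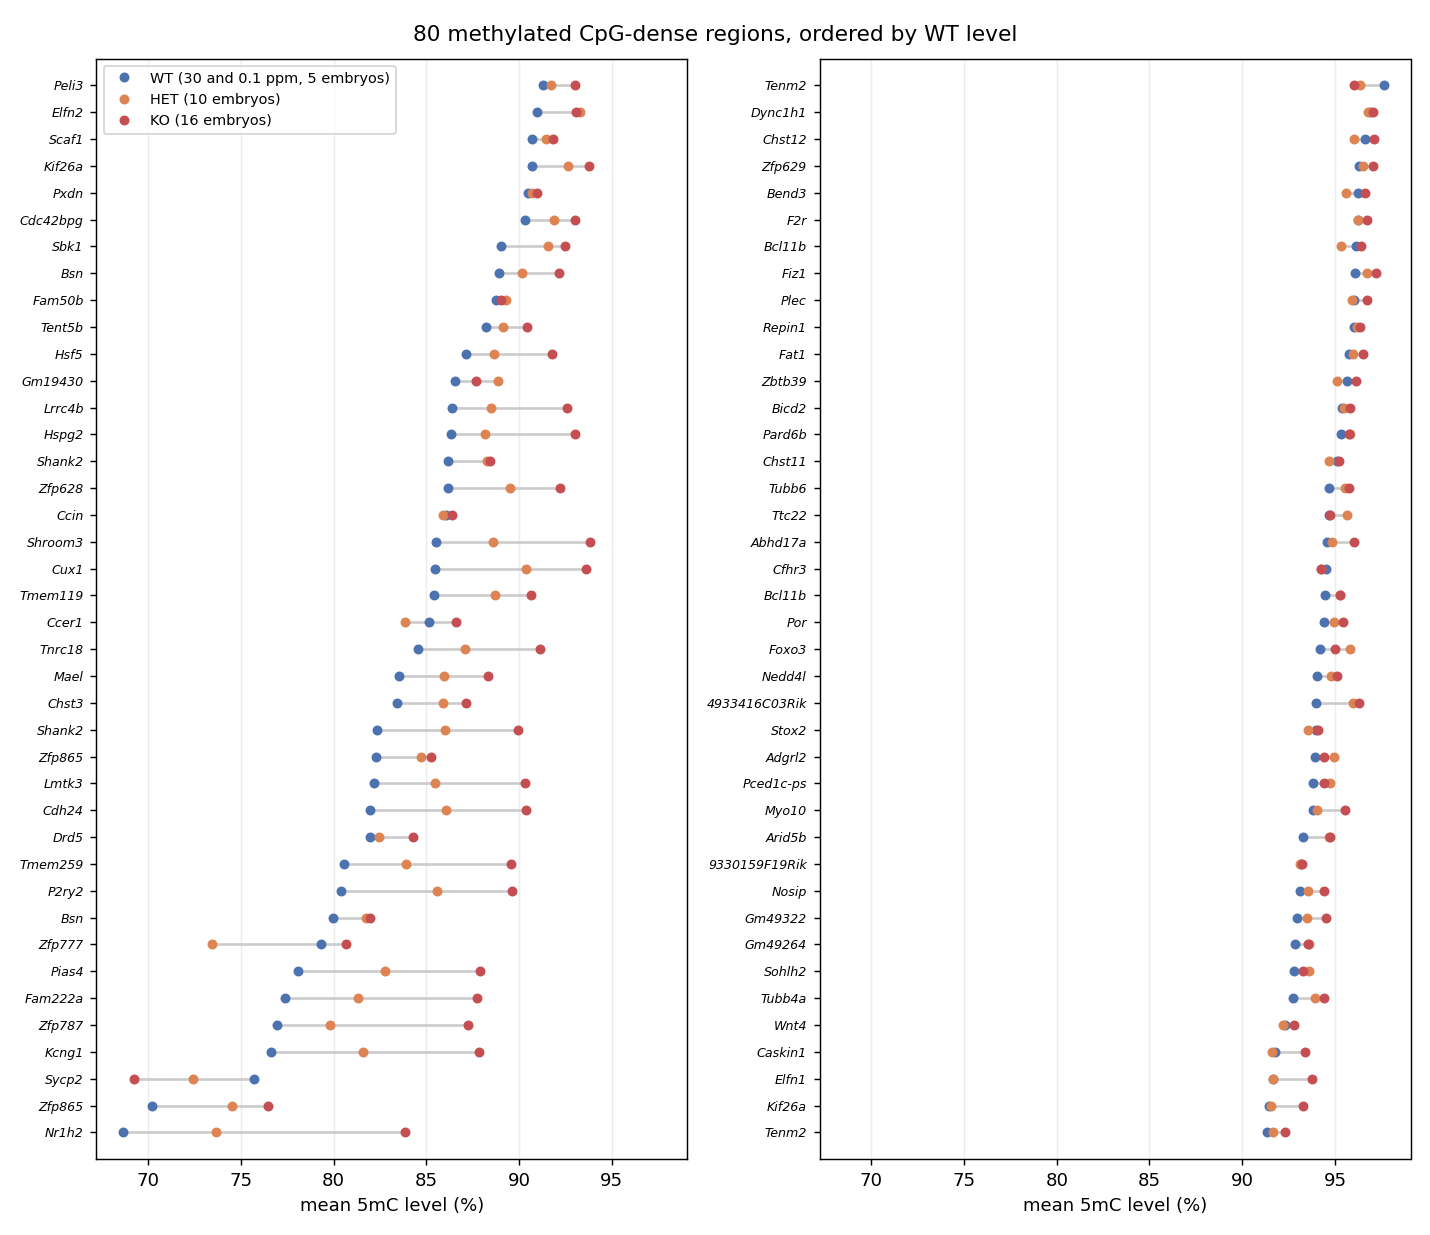
Mean 5mC level (%) of each of 80 regions in WT embryos of the 30 and 0.1 ppm diets (n = 5), HET (n = 10) and KO embryos (n = 16), ordered by the WT level. The KO mean is above the HET mean in 66 of 80 regions, and the distance between genotypes is widest where the WT level is lowest. Of all regions tested in KO against HET embryos, 78.5% were higher in KO.

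The gap between KO and HET embryos was wide in regions of intermediate level and narrow in fully methylated ones. Regions were grouped by the level of the WT embryos of 30 and 0.1 ppm, which enter neither side of this difference. In 9 regions under 80% the median of KO minus HET was 6.25 points (range -3.21 to 10.2), with 8 of them higher in KO. In 25 regions between 80 and 90% it was 2.68 points, with 23 higher, and in 46 regions of 90% or more it was 0.49 points, with 35 higher. Across the 80 regions Pearson's r between WT level and difference was -0.665 and Spearman's rho -0.575. The regions share their libraries and a level cannot pass 100%, so the correlation is a description without a p-value.

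Single CpGs followed the same order. The 275 CpGs at 50 to 80% in WT embryos had a mean of 75.9% in HET and 81.02% in KO embryos, a difference of 5.12 points, and KO was above HET at 82.2% of them. At 425 CpGs of 80 to 90% the difference was 2.69 points, at 526 CpGs of 90 to 95% it was 0.739 points and at 608 CpGs of 95% or more 0.265 points, with KO above HET at 57.2%. Just 22 CpGs were under 50%, with a difference of 3.62 points. Promoter regions (22, median difference 1.09 points) and exonic regions (55, median 0.8 points) spanned overlapping ranges.

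**Figure D4:**
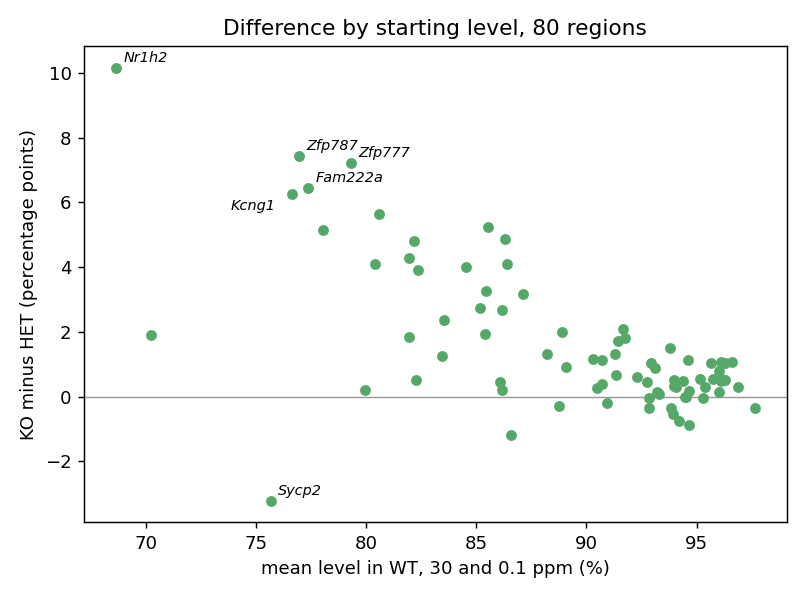
Difference between the KO and HET means (percentage points) of each of 80 regions against the mean level (%) in WT embryos of the 30 and 0.1 ppm diets. Regions under 80% have a median difference of 6.25 points and those of 90% or more of 0.49 points, and Sycp2 is the region with the lowest difference, at -3.21 points.

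Next, regions were tested one by one, in a fit over all autosomal regions with at least 3 CpGs covered in every embryo and an SD of at least 2 points. Calls needed a difference of at least 10 points and an adjusted p under 0.05. In KO against HET embryos of all diets, 37 of the 81 regions met these filters and 0 were called, where 8.26% of the 56287 regions tested were. A rise of 10 points has no room in a region near full methylation. In HET embryos 49 of 80 regions had a mean of 90% or more. Some of the 37 tested did have room, such as Nr1h2 at a HET mean of 73.7% and Kcng1 at 81.6%. The largest difference among the 37 was 9.72 points. Why 0 were called was not tested. At an adjusted p under 0.05 and any size of the difference, 18 of the 37 were higher in KO and 0 lower, and 22 had an unadjusted p under 0.05. The share over all regions was 22.4% by this rule. Differences are those of group means within diets, over the CpGs covered in every embryo of the comparison. For both reasons they depart from those of the plain means above, which use CpGs covered in all 35 embryos. The median difference was 2.26 points in the 37, 1.69 points in all regions tested and 0.803 points in the 80 regions without the filter on the SD. Without the filter on the SD 21 of 80 passed, all higher in KO, where 19.5% of all regions did. The 81 regions hold more CpGs than most: among all regions with at least 10 CpGs, 64.9% passed at any size, and so did 19 of 31 of the regions described here.

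In KO against WT embryos of the 30 and 0.1 ppm diets, 38 of the 81 regions were tested and 2, Kcng1 and Nr1h2, were called, both higher in KO, where 11.8% of 58185 regions were called. Here 46 of 80 regions had a WT mean of 90% or more, and the largest difference among the 38 tested was 14.4 points. At any size 25 were higher and 0 lower, with 23.8% over all regions. The shares over all regions in this paragraph are not matched for the number of CpGs, of which the 81 regions hold more than most. The counts beside them therefore cannot be read as an excess. The median difference was 4.44 points, 2.77 points in all regions and 1.33 points in the 80 regions without the filter on the SD. Both comparisons share the KO embryos, so their values are not independent. Without the 3 libraries that went against their labels at Tet1, 11 of 37 regions were called, namely P2ry2, Fam222a, Cux1, Kcng1, Nr1h2, Lmtk3, Cdh24, Zfp787, Tmem259, Pias4 and Shroom3, all higher in KO, where 18.4% of all regions were. At any size 28 passed, with a median of 5.02 points, where 33.4% of all regions did. In KO against HET embryos, leaving out the library labelled KO replicate 1 of 30 ppm gave 1 call, Nr1h2 with 10.0 points, where 9.46% of all regions were called, and 20 of 36 regions passed at any size, with a median of 2.67 points, where 26.9% of all regions did. Without the filter on the SD 30 of 80 regions were higher and 1 lower in KO than in WT at any size, where 18.6% of all regions passed. The lower one was one of the Tenm2 regions, with -1.99 points and an adjusted p of 0.0328.

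Nr1h2, the gene of the liver X receptor beta, a nuclear receptor for oxysterols, had the widest difference. Its region (chr7:44551001-44552000) is 48.6% coding and holds an annotated start site. WT embryos of 30 ppm read 68.2, 76.6 and 67.8% and those of 0.1 ppm 56.2 and 74.4%. HET embryos ran from 66% over a median of 72.3% to 83.8%, and KO embryos from 77.2% over 83.7% to 88.7%. The KO range thus began above all 5 WT embryos and overlapped that of HET. KO exceeded HET by 9.72 points (SE 1.35, adjusted p = 1.23e-08, quasi-binomial test) and WT by 14.4 points (SE 2.93, adjusted p = 9.49e-05). The 2 highest WT values came from the libraries labelled WT replicate 2, and without the 3 libraries KO exceeded WT by 19.7 points (SE 2.85).

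Kcng1 encodes a modifier subunit of voltage-gated potassium channels, and its region (chr2:168262001-168263000) covers coding sequence and UTR of an exon of 3034 bases. WT embryos read 74.0, 76.8 and 78.8% at 30 ppm and 73.1 and 80.55% at 0.1 ppm. HET embryos ran from 77.3 to 84.7% with a median of 81.7%, and KO embryos from 79.3 to 91.3% with a median of 88.1%. The lowest KO value is that of the library labelled KO replicate 1 of 30 ppm, and the other KO embryos were at 84.5% or more. KO exceeded HET by 5.82 points (SE 0.989, adjusted p = 2.52e-06) and WT by 10.7 points (SE 1.78, adjusted p = 2.35e-05), or 12.9 points without the 3 libraries.

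Shroom3 encodes an actin-binding protein that drives apical constriction of the neural plate and is needed for closure of the cranial neural tube. The region (chr5:92942001-92943000) lies wholly in the coding part of an exon of 3611 bases and holds 122 CpGs, the highest number of the 81. WT embryos read 83.9, 87.5 and 80.9% at 30 ppm and 82.7 and 92.8% at 0.1 ppm. The HET range was 83.9 to 93.4% and KO embryos from 91.2 to 96.0%, with a median of 93.75%. All KO embryos were above 4 of the 5 WT embryos, and the fifth is the library labelled WT replicate 2 of 0.1 ppm. KO exceeded HET by 5.13 points (SE 0.895, adjusted p = 7.96e-07) and WT by 8.68 points (SE 1.58, adjusted p = 2.33e-05), or 11.9 points without the 3 libraries.

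Hspg2 and Pias4, which encodes a SUMO ligase, rose in the same direction. Hspg2 (chr4:137518001-137519000) read 84.1, 90.7 and 84.35% in WT embryos of 30 ppm and 83.8 and 88.55% in those of 0.1 ppm. HET embryos ran from 84.5 over a median of 89.0 to 90.9% and KO embryos from 89.98 over 92.8 to 96.5%, so that a single KO embryo lay within the HET range. KO exceeded HET by 4.69 points (SE 0.576, adjusted p = 1.84e-07). Pias4 (chr10:81153001-81154000), the region of this group that is largely UTR, read 77.4, 81.35 and 73.75% in WT embryos of 30 ppm, 72.5 and 85.35% in those of 0.1 ppm, 79.5 to 87.4% in HET and 82.6 to 92.3% in KO embryos. The difference to HET was 4.75 points (SE 0.759, adjusted p = 3.02e-07) and the WT and KO ranges overlapped through 1 WT library, the one labelled WT replicate 2 of 0.1 ppm.

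Fam222a (chr5:114611001-114612000), coding throughout, read 75.3, 79.4 and 74.8% in WT embryos of 30 ppm and 73.4 and 84.0% in those of 0.1 ppm. The HET range was 78.1 to 84.4% and KO embryos from 80.2 to 91.2%. KO exceeded HET by 6.17 points (SE 0.96, adjusted p = 3.96e-07) and WT by 9.27 points (SE 1.77, adjusted p = 6.76e-05), or 12.8 points without the 3 libraries. The other regions that passed at any size in KO against HET were Lmtk3, Cdh24, Tmem259, Tnrc18, Zfp787, Cux1, Hsf5, Lrrc4b, P2ry2 and one region each of Shank2, Zfp865 and Bsn, with differences of 1.86 to 7.85 points. The second region of Shank2, a scaffold of the postsynaptic density, differed by 0.759 points (adjusted p = 0.649) and that of Bsn, a scaffold of the presynaptic active zone, by 0.0987 points (0.764), and neither passed.

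**Figure D5:**
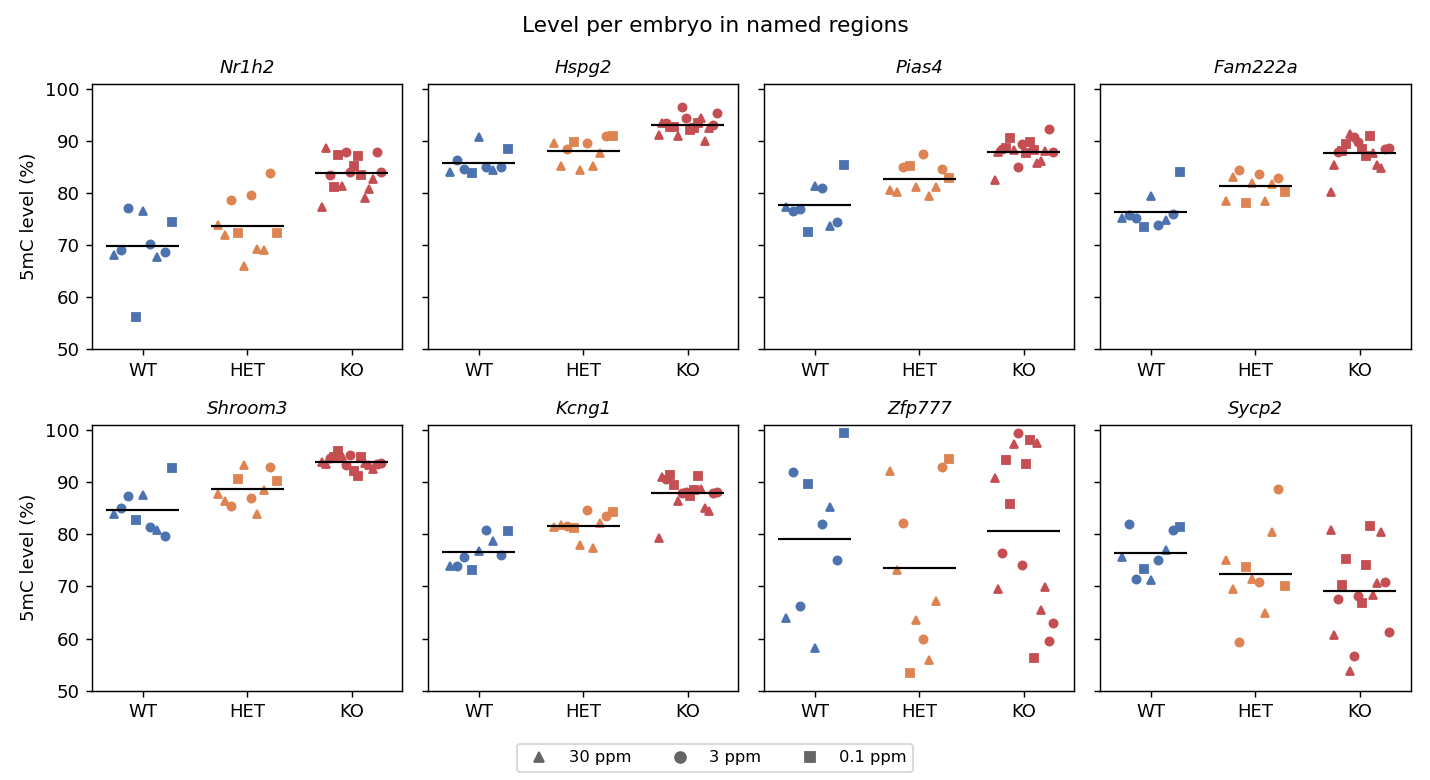
5mC level per embryo (%) in 8 regions by genotype; symbols mark the diet, bars the mean, the axis starts at 50%, and the WT column includes the 3 ppm embryos that chose the regions. In Nr1h2, Hspg2, Pias4, Fam222a, Shroom3 and Kcng1 the KO mean lies above the HET and WT means, while in Zfp777 KO embryos spread from 56.3 to 99.4% and in Sycp2 from 53.85 to 81.7%.

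Of the regions in Zfp genes, 4 met the filters in KO against HET and 2 passed at any size, beside 18 of 37 of the regions described here and 22.4% of all regions. Zfp787 (chr7:6132001-6133000) read 75.05, 79.7 and 76.6% in WT embryos of 30 ppm, 66.8 and 86.6% in those of 0.1 ppm, 69.1 to 86.9% in HET and 80.4 to 92.5% in KO embryos, and KO exceeded HET by 7.85 points (SE 1.98, adjusted p = 1.82e-04), but did not pass on 30 ppm alone. In Zfp865 (chr7:5031001-5032000), with 69 CpGs covered in the WT embryos of the rule, WT embryos read 69.5, 71.4 and 67.2% at 30 ppm and 69.9 and 73.05% at 0.1 ppm, HET embryos 71.7 to 77.0% and KO embryos 72.4 to 79.8%. It was 1.86 points higher in KO than in HET (SE 0.849, adjusted p = 0.0376) and 6.45 points higher than in WT (SE 1.05, adjusted p = 1.81e-05). The difference to WT did not pass with limma on logit levels (adjusted p = 0.089). That to HET did not pass in 5 of 10 alternatives, limma (adjusted p = 0.454) among them, and in 9 of 26 fits with 1 embryo left out. Zfp628 (adjusted p = 0.0737) and Zfp777 (0.568) did not pass in KO against HET, with 2.63 and 6.48 points. With 1 embryo left out these differences ranged from 1.98 to 3.62 and from 2.84 to 9.2 points. Zfp628 passed once the library labelled KO replicate 1 of 30 ppm was left out, with 2.96 points (SE 1.17, adjusted p = 0.0295), and it was 5.85 points higher in KO than in WT (SE 1.8, adjusted p = 0.00846). That difference was 9.52 points (SE 1.41) without the 3 libraries, and it did not pass with limma, on either diet alone and without WT replicate 1 of 30 ppm.

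Zfp777 (chr6:48024001-48025000) varied more between embryos than any other region, with an SD of 15.1 points over 35 embryos, against 7.81 in Nr1h2, 7.77 in Sycp2 and 6.05 in Zfp787. WT embryos of 30 ppm read 64.0, 58.25 and 85.2% and those of 0.1 ppm 89.7 and 99.4%. HET embryos ran from 53.3 over a median of 70.2 to 94.4% and KO embryos from 56.3 over 81.1 to 99.4%, so that each genotype spanned the range and 14 embryos were under 70%. The lowest and the highest embryo differed at all CpGs measured. In HET replicate 1 of 0.1 ppm its 10 CpGs measured in all embryos lay between 40.0 and 73.3%. In the library labelled WT replicate 2 of 0.1 ppm they lay between 94.1 and 100.0%. These levels rest on 150 and 179 reads summed over the 10 CpGs, so the coverage of each CpG was far lower. The region had values under 70% and over 90% on every diet.

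Other regions did not pass in KO against HET. Sycp2 (chr2:178407001-178408000), a promoter region, read 75.6, 71.15 and 76.9% in WT embryos of 30 ppm and 73.3 and 81.4% in those of 0.1 ppm. HET embryos ran from 59.3 to 88.8% and KO embryos from 53.85 to 81.7%, with medians of 71.1 and 69.4% over 13 CpGs. The difference of -3.53 points to HET had an SE of 3.36 and did not pass (adjusted p = 0.835), and neither did -4.72 points to WT. With 1 embryo left out the difference to HET ranged from -4.91 to -1.15 points, the latter without HET replicate 3 of 3 ppm. Mael, the other germline gene, did not meet the filter on the SD in KO against HET and so was not tested there. It read 83.5% ± 3.9 (SD, n = 5) in WT, 85.95% ± 1.27 (n = 10) in HET and 88.3% ± 1.81 (n = 16) in KO embryos and passed against WT with 4.78 points (SE 1.29, adjusted p = 9.62e-04). Once the library labelled KO replicate 1 of 30 ppm was left out it met the filter and was higher in KO than in HET. The pseudogene Gm19430 (-1.11 points, adjusted p = 0.652), Elfn2, which encodes a synaptic leucine-rich repeat protein (-0.264 points, 0.907), and the kinase gene Sbk1 (0.679 points, 0.688) did not pass in KO against HET. Against WT, Elfn2 and Sbk1 differed by 2.01 and 2.55 points and did not pass. Without the 3 libraries both were higher in KO than in WT, Elfn2 by 3.86 points (SE 1.1, adjusted p = 0.0148) and Sbk1 by 3.79 points (SE 1.97, adjusted p = 0.0176).

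Regions of the highest level had close values in all groups. Fiz1, Dync1h1, Plec, F2r and Zfp629, picked as examples after their values were seen, were at 95% or more in all 3 genotypes. Fiz1 read 96.1% in WT, 96.8% in HET and 97.2% in KO embryos. Dync1h1, the heavy chain of cytoplasmic dynein, read 96.9, 96.8 and 97.1%. F2r read 96.25, 96.2 and 96.7%.

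In HET against WT embryos of the 30 and 0.1 ppm diets 34 of the regions were tested and 0 were called, where 0.00163% of 61441 regions were. At any size 0 regions passed, where 0.00488% of all regions did, 13 had an unadjusted p under 0.05, and the median difference was 2.01 points, against 1.08 points in all regions and 0.715 points in the 80 regions without the filter on the SD. This count rests on the libraries labelled WT replicate 2. Without the 2 of them, 12 of 33 regions were higher in HET at any size and 0 lower, where 2.42% of all regions passed, with differences of 4.34 to 6.78 points. Among regions of that fit with at least 10 CpGs 14.8% passed, and 12 of 32 of the regions described here. The 12 were Cdh24, Cux1, Fam222a, Kcng1, Lmtk3, P2ry2, Pias4, Shroom3, Tmem119, Tmem259, Tnrc18 and Zfp865, and 3 WT embryos were then left. For Shroom3 the difference was 6.44 points (SE 1.93, adjusted p = 0.0107) and for Pias4 6.78 points (SE 1.6, adjusted p = 0.00178).

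The FA content of the diet gave few calls. Diets were given to the dams and every litter had a single diet, so diet and litter cannot be told apart between diets. Between 30 and 3 ppm in KO embryos 33 regions were tested and 0 called (0.0% of 64989 regions), with 7 at an unadjusted p under 0.05 and a median of -1.44 points, against -1.35 points in all regions. Once the library labelled KO replicate 1 of 30 ppm was left out, the median was -0.3 points over 23 regions tested, and 0 were called. Between 0.1 and 3 ppm in KO embryos it was 0 of 19 (0.0% of 59941 regions), with 2 at an unadjusted p under 0.05 and a median of -0.0627 points. By limma on logit levels 0 regions were called in either comparison. Whether the effect of the genotype differed between diets was tested as an interaction in KO and HET embryos, and 0 of 37 regions passed for 30 against 3 ppm (0.0% of 61465 regions) and 0 of 32 for 0.1 against 3 ppm (0.0% of 58913), with 0 and 3 at an unadjusted p under 0.05.

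In HET embryos the 30 ppm diet was lower than 3 ppm in 22 of 24 regions tested, with a median of -2.27 points, against -0.986 points in all regions, and Nr1h2 was called, where 0.0201% of 79755 regions were. Of those 79755 regions 38.4% were higher at 30 ppm. Without the filter on the SD 61 of 81 regions were lower, with a median of -0.632 points. The levels of Nr1h2 were 73.8, 72, 66, 69.3 and 69% at 30 ppm and 78.7, 79.6 and 83.8% at 3 ppm, which do not overlap. The HET embryos of 0.1 ppm, which did not enter this comparison, read 72.28 and 72.29%, within the range of 30 ppm. Between 30 and 3 ppm the difference in Nr1h2 was -10.7 points (SE 2.12, adjusted p = 2.06e-04). The 5 embryos of 30 ppm came from 3 litters and the 3 of 3 ppm from 3 litters, and litter was not part of this fit. The call was lost with limma on logit levels, without the filter on the SD, and when either HET replicate 3 of 30 ppm or HET replicate 3 of 3 ppm was left out. Pias4 passed at a smaller size, with -5.3 points (SE 0.88, adjusted p = 0.0108), and did not pass without the filter on the SD.

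In WT embryos the 30 and 0.1 ppm diets were compared, since neither chose the regions. Zfp777 was the 1 region called of 28 tested, where 0.00486% of 61674 regions were, with -25.4 points (SE 11.2, adjusted p = 0.00504). The call was lost with limma on logit levels, without the filter on the SD and with at least 10 CpGs per region. Without the 2 libraries labelled WT replicate 2 a single embryo was left at 0.1 ppm. The difference in Zfp777 was then 3.03 points, and Zfp787 was 15.8 points higher at 30 ppm. Between the 5 KO embryos with an NTD and the 7 of normal phenotype 0 of 20 regions tested were called, where 0.00605% of 66110 regions were. Of the 20, 3 had an unadjusted p under 0.05, and the median difference was -0.439 points. Litter could not be added to this fit, so litter and phenotype cannot be told apart.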

How the data were processed

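Genomic DNA of 36 single brains was cut with MspI and TaqI, oxidised, bisulfite converted and sequenced. According to the study's methods and the submitters' processing notes, the authors trimmed reads with Trim Galore 0.6.10, aligned them to mm10 with Bismark 0.24.1, removed duplicates by molecular identifiers with UMI-tools and worked with methylKit 1.26.0 in R 4.3.1. The deposited table of each library gives, for every CpG, the fraction of methylated reads, which the authors made without further normalization, and the count of reads covering it. Fraction times count gave whole numbers, which gave each CpG its counts of methylated and other reads. The lowest count in a table is 2. Lists of differentially methylated regions, which are the authors' own comparisons, were not used. All 2894759 autosomal CpGs used were CG in the mm10 reference. Whether they are CG in the mouse line studied was not tested.

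Autosomes were divided into regions of 1 kb, and CpGs covered at least 5 times were kept. The level of a region is its methylated reads over all reads, both summed over its CpGs. A region was tested if at least 3 CpGs were covered in every embryo and levels had an SD of at least 2 points. These counts entered a quasi-binomial logistic regression, with diet as a covariate where several diets entered. Dispersions were shrunk towards a common value by the squeezeVar method of limma, with a floor of 1, and a two-sided F test was adjusted by the Benjamini-Hochberg method over all regions tested. The difference in points is that of group means within diets. Its SE comes from a least-squares fit to the levels of the embryos and not from the test that gave the p-value. limma's method on logit levels, with 1 read added to each state, was the alternative test. Both tests were checked on simulated data. Embryos of a comparison are separate animals, so p-values measure the spread between embryos, some of which share a litter. In comparisons between diets they do not measure the spread between litters.

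Levels across embryos pool the reads of CpGs with a coverage of 5 or more in each of the 35 embryos. The highest share of CpGs with equal coverage in a pair of libraries was 6.77% of 910594, so no pair of libraries was counted as 1. Regions were annotated with GENCODE vM21. A promoter lies within 1 kb of a start site, and other stretches of at least 95% identity over 200 bases were found with BLAST 2.17.0. Computation used Python 3.11.15, NumPy 2.4.6, SciPy 1.17.1, pandas 2.3.3 and matplotlib 3.10.9.

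The regions, gene lists and tests were chosen with earlier results of these data known. Named are the 6 regions with the largest rise and the 3 with the largest fall in KO against HET embryos (by unadjusted p, as none was called), the 3 with most CpGs, the 3 that varied most in WT embryos, members of the gene lists, those nearest to 70% and those called in another comparison. Other genes are named to list a count in full or as examples chosen after their values were seen. Alternatives were a coverage of 10 reads, 10 CpGs per region, no filter on the SD, differences of 5 and 20 points, limma, each diet alone, litter as a block, regions of 80% or more or of 20 CpGs or more, shifted regions, chromosome 10 left out, HET replicate 2 of 0.1 ppm kept, KO replicate 1 of 30 ppm counted as HET, the 3 libraries left out, and each embryo left out in turn. The study matched embryos within litters, and the labels give litters but no shared replicate numbers, so litter was used as the replicate block in place of diet.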

Additional observations from a re-analysis of the deposited data

Results flagged for a closer look

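Of 75 groups of 4 to 6 embryos examined for a value far from the others, 4 held one, and chance gives about 1 in 20 groups. The mean level over the 80 regions was lowest in the library labelled KO replicate 1 of 30 ppm, at 89.8%, where the other KO embryos of that diet read 91.3 to 91.9%. This library also read 45% at the CpG in Tet1, in the range of HET libraries. In Gm19430, KO replicate 3 of 30 ppm was lowest at 82.5%, where the others read 88.5 to 91.7%. In Kcng1, KO replicate 1 of 3 ppm was highest at 90.6%, where the others read 88.0 to 88.1%. In Elfn2, KO replicate 5 of 3 ppm was lowest at 88.5%, where the others read 94.1 to 95.7%.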

How the results depend on the processing

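The difference of 1.64 points between KO and HET embryos over the 80 regions was 1.47 with equal weight per region, 1.57 at a coverage of 10, 1.65 with each embryo's own CpGs and 1.76 without the 3 libraries, the last an alternative added after the data were seen. In KO against HET embryos the 0 calls became 1 without these libraries and on the 30, 3 and 0.1 ppm diets alone, 6 at a minimum difference of 5 points and 4 with regions of 20 CpGs or more, and 0 to 1 with 1 embryo left out (Nr1h2 without HET replicate 1 or KO replicate 1 of 30 ppm or HET replicate 3 of 3 ppm). The 18 of any size became 9 on 30 ppm, 10 on 0.1 ppm, 10 with regions of 80% or more and 81 with 20 CpGs or more, and 16 to 20 with 1 embryo left out. In KO against WT embryos the 2 calls became 11 without the 3 libraries, 4 on 0.1 ppm alone, 17 at 5 points, 0 at 20 points, 0 with regions of 80% or more, 19 with 20 CpGs or more, and 1 to 6 with 1 embryo left out: 6 without WT replicate 2 of 0.1 ppm, 4 without WT replicate 2 of 30 ppm and 1 without WT replicate 1 of 0.1 ppm. The 25 of any size became 14 with limma, 15 on 30 ppm and 114 with 20 CpGs or more, and 19 to 27 with 1 embryo left out. In HET against WT embryos the 0 calls became 1 on 0.1 ppm alone (Zfp777, lower). Regions of 20 CpGs or more are a larger set than the regions described here, so their counts cannot be set beside the others. The counts in this section show what moved and stand without the share over all regions.

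In HET embryos on 30 against 3 ppm the 1 call became 0 without the filter on the SD, 0 with limma, 2 at 5 points, 0 at 20 points, 0 with regions of 80% or more, and 0 to 2 with 1 embryo left out (0 without HET replicate 3 of 3 or of 30 ppm). In WT embryos on 30 against 0.1 ppm the 1 call became 0 with 10 CpGs per region, 0 without the filter on the SD, 0 with limma and 0 with regions of 80% or more, and 1 to 2 with 1 embryo left out, namely 2 without either embryo of 0.1 ppm. Leaving one out leaves 1 embryo on 0.1 ppm, which is assumed to vary like the others.

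Among single regions the KO minus HET difference changed sign in Sycp2 (1.77 on 0.1 ppm), Elfn2 (1.2 on 3 ppm, and 0.482 with KO replicate 1 of 30 ppm counted as HET), Sbk1 (-0.929 at a coverage of 10, -2.64 on 3 ppm, -0.417 without KO replicate 6 of 30 ppm, the low end of -0.417 to 1.79 with 1 embryo left out) and Zfp777 (-3.9 on 3 ppm). The KO minus WT difference changed sign in Gm19430 (-1.15 without the 3 libraries, -0.0823 on 0.1 ppm, -0.12 without KO replicate 6 of 30 ppm, the low end of -0.12 to 2.03) and Zfp777 (-9.01 on 0.1 ppm, -0.727 without WT replicate 2 of 30 ppm, the low end of -0.727 to 6.88). None of these values passed the test in either direction, and the cause was not tested.

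With litter as a replicate block in place of diet, KO against HET embryos gave 0 calls and 19 of any size, KO against WT embryos 2 and 22, and HET against WT embryos 0, so the counts of calls at 10 points were the same. The block could not be fitted for NTD embryos, whose phenotype goes with litter. Small groups limit the WT and HET comparisons, with 2 embryos each on 0.1 ppm.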
